A study of Mus musculus with 8 samples.

Results

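S-phase ECs are endothelial cells whose transcripts include those of active DNA replication. They were taken here by a rule on single-cell counts: a UMI (1 captured transcript molecule) of the endothelial genes Pecam1, Kdr or Cdh5, UMIs of at least 3 of the 9 replication genes Rrm2, Tyms, Tk1, Gins2, Mcm3, Mcm5, Mcm6, Hells and Uhrf1, UMIs of fewer than 3 of the 7 G2/M genes Cenpf, Cdc20, Ccnb2, Ube2c, Cenpa, Birc5 and Prc1, and none of Ptprc (CD45, leukocytes) or Rgs5 (pericytes). The rule found 1466 cells, which were 5.89% of the 24881 cells that met its endothelial part and 4.72% of the 31028 deposited cells. The cells came from the ventricles of 8 adult Pdgfb-iCreERT2-R26R-Brainbow2.1 mice, 4 healthy and 4 at 7 days after MI (myocardial infarction), for which the left anterior descending artery had been tied off permanently, with 1 library per mouse. All 8 mice carried the inducible Cre under the Pdgfb promoter and the multicolour Confetti reporter and had received 150 mg/kg tamoxifen 21 days before harvest, which was 14 days before ligation in the MI group. Sorting kept CD31+Confetti+Podoplanin- cells, so ECs in which Cre had not acted could not be seen, and Podoplanin, a lymphatic marker, was sorted against. DNA content and nucleotide uptake were not measured in these libraries, and S phase here means the transcript rule alone.

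A dividing cell copies its DNA in S phase. Before that, the helicase of MCM proteins is loaded onto origins with the help of Cdc6 and Cdt1, and as forks start the sliding clamp Pcna, the polymerases, ribonucleotide reductase and the histone supply are called on. Many of the genes concerned are switched on in late G1 by E2F transcription factors, while genes of G2 and mitosis are switched on later, in large part through a promoter element called the CHR. Most ECs of an adult heart are at rest, and ECs divide when new vessels form after injury.

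The 2 promoter classes are shown here because the rule takes one set of genes in and the other out. E2F-type letters (TTTCCCGC, TTTGGCGC, TTTCGCGC or TTTGCCGC on either strand) occurred in 5 of the 8 replication rule genes found in the RefSeq GRCm38.p6 promoter table, searched from 250 bases before to 50 after the transcript start, and CHR letters (TTTGAA on either strand) in none of them. Among the 7 G2/M rule genes, 6 had CHR letters and none had E2F-type letters. Over all 27025 genes of that table, windows of the same length held E2F-type letters in 2.6% and CHR letters in 20.2%. A match of letters is not a measured binding site. The stretches below are read 5′ to 3′ on the gene's strand, with the matched letters in capitals. In Mcm6 and Mcm5, which encode helicase subunits, neighbouring matches on the 2 strands overlap. Mcm6 is at chr1:128359706-128359865, Mcm5 at chr8:75109349-75109467, Top2a (a topoisomerase of late S phase and mitosis, outside the rule) at chr11:99024200-99024369 and Cdc20 (an activator of the anaphase ligase) at chr4:118437353-118437503, all upstream of the annotated first exon.
Mcm6, E2F-type, minus strand: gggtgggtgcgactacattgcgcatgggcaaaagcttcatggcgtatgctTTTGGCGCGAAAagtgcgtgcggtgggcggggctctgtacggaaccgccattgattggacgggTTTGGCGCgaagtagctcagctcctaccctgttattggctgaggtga
Mcm5, E2F-type, plus strand: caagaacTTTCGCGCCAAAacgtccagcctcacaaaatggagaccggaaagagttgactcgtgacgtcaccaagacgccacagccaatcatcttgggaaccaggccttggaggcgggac
Top2a, CHR, minus strand: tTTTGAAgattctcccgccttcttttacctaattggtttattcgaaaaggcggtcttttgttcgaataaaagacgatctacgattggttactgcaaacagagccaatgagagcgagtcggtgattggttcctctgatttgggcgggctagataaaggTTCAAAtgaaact
Cdc20, CHR, minus strand: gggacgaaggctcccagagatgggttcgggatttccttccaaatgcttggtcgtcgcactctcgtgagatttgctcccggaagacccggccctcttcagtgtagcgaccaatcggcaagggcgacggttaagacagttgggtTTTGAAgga

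Shorter stretches of 28 bases are given for 3 further genes whose matches lie at or inside the annotated first exon. They are Hells, a chromatin remodeller of the rule, at chr19:38930918-38930945, Dtl, a substrate receptor of the ligase that removes Cdt1 at replicating DNA and a gene outside the rule, at chr1:191575535-191575562, and Ube2c, the ubiquitin donor of mitotic exit, at chr2:164769889-164769916.
Hells, E2F-type, plus strand: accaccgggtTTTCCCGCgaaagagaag
Dtl, E2F-type, minus strand: gtgacgtcagTTTGGCGCggagtttggc
Ube2c, CHR, plus strand: gagggttgcaaTTCAAAcgcgggcggcg

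Outside the rule genes, E2F-type letters were found in 11.4% of the matched genes that passed the threshold higher in S-phase cells than in other ECs and in 2.63% of those that passed lower, beside 5.02% of the 8591 matched genes tested in that comparison. CHR letters were in 71.4% of the 28 matched genes of a list of G2 and mitosis genes outside the rule, and E2F-type letters in 3.57%. These shares describe the lists and were not tested.

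S-phase cells were a larger part of the ECs of infarcted hearts. They were 1.12% (24 of 2138), 1.74% (24 of 1378), 0.701% (23 of 3280) and 0.96% (29 of 3021) of ECs in the healthy mice 227, 228, 239 and 240. In the MI mice 244, 250, 255 and 256 they were 13.4% (527 of 3944), 7.59% (339 of 4466), 10.6% (377 of 3566) and 3.98% (123 of 3088). Every MI mouse was above every healthy mouse, and MI 256 was the lowest of its group. The means were 1.13% ± 0.442 (SD, n = 4) and 8.88% ± 4.02 (SD, n = 4), a difference of 7.75 percentage points. The two-sided exact permutation p was 0.0286, the smallest that 4 against 4 mice allow. Without cells above the 95th percentile of UMIs the means were 0.62% and 8.04%. That left 11, 13, 11 and 17 S-phase cells in the healthy mice 227, 228, 239 and 240. MI libraries were deeper, and the rule counts genes with a UMI. With each cell thinned to 1000 UMIs the shares were 0.188% ± 0.0668 and 1.77% ± 0.927 (SD, n = 4 each), 9.43-fold apart, and at 2000 UMIs 0.915% ± 0.234 and 4.08% ± 1.84 (SD, n = 4 each), 4.46-fold apart, both with an exact permutation p of 0.0286. At 1000 UMIs the healthy shares rest on 2, 3, 5 and 7 S-phase cells in mice 227, 228, 239 and 240, so the fold is loosely set. Thinning to 1000 UMIs left out 592 healthy cells and 0 MI cells as too shallow, none of them S-phase cells, and thinning to 2000 left out 4949 and 709, with 2 and 11 S-phase cells among them.

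**Figure D1:**
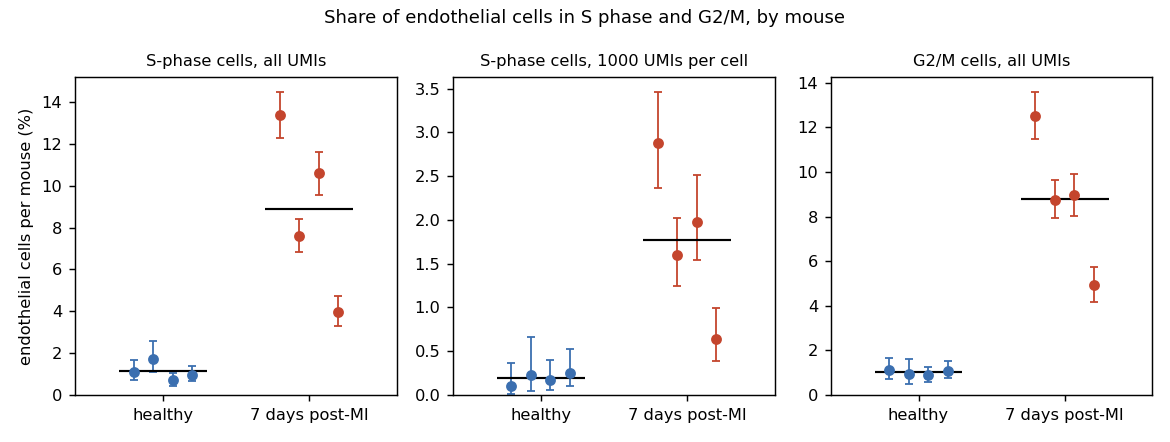
Share of ECs (percent, 1 point per mouse with its exact binomial 95% interval, black line at the group mean) that met the S-phase rule in the full counts and with cells thinned to 1000 UMIs, and that met the G2/M rule, in 4 healthy and 4 MI mice. The S-phase shares run from 0.701% to 1.74% in healthy mice and from 3.98% to 13.4% in MI mice, with no overlap.

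G2/M cells, ECs with UMIs of 3 or more of the 7 G2/M genes, were about as frequent in the full counts. There were 1454 of them, 99 from healthy and 1355 from MI mice, or 1.01% ± 0.115 and 8.78% ± 3.1 of ECs (SD, n = 4 each, exact permutation p = 0.0286). With cells thinned to 1000 UMIs G2/M cells were the more frequent. They were 0.605% ± 0.187 and 4.22% ± 0.951 of ECs (SD, n = 4 each), against 0.188% and 1.77% for S-phase cells. Of S-phase and G2/M cells together, S-phase cells made up 51.5% ± 9.24 (SD, n = 4) in the healthy group and 49.2% ± 4.41 (SD, n = 4) in the MI group. That difference of -2.22 percentage points was smaller than the spread between mice (exact permutation p = 0.8). Its sign turned with depth (3.08 points with cells thinned to 1000 UMIs) and without the healthy mouse 228 (2.25 points). The level of this part depended on depth as well. After thinning to 1000 UMIs it was 24.8% (SD 10.3) for the healthy group and 27.9% (SD 7.5) for the MI group. The healthy value rests on 2 of 19, 3 of 11, 5 of 19 and 7 of 20 cells in mice 227, 228, 239 and 240.

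The cells were not sharply set off from the rest. Of the 1466 members, 544 had exactly 3 of the 9 replication genes, 310 had 4, 213 had 5 and 48 had all 9, while 1696 ECs outside had 2 and 14412 had none. G2/M genes were absent in 845 members, and 192 had 2 of them, just under the limit. A further 832 ECs with at least 3 replication genes were G2/M cells by the rule. Members had more transcripts per cell than other ECs, with median UMIs of 4931 against 2070.5 in healthy and 6844.5 against 3774 in MI mice. For that reason each value against other ECs was also computed with 1 comparison cell of the nearest UMI count per member, called depth-matched below.

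The endothelial genes Pecam1, Kdr and Cdh5 are part of the rule, and their levels are given as a description. All 3 had a UMI in 83.3% of members, which are deeper, against 64.7% of other ECs. Per UMI each of the 3 was lower in S-phase cells than in other ECs in all 8 mice. Kdr, the VEGF receptor 2, was at 413 to 727 CPM (counts per 1000000 UMIs) in healthy and 351 to 465 CPM in MI S-phase cells, against 751 to 957 and 415 to 615 CPM. Markers of other cells were present in places. Among cells outside the endothelial rule, at least 3 replication genes were seen in 2.45% of 693 cells with no endothelial UMI (median 2648 UMIs), 11.4% of 1095 cells with Ptprc (median 7183) and 8.4% of 2418 cells with Rgs5 (median 3993). Those cells can divide too and are no measure of background. The summed level of 8 macrophage genes in S-phase cells was 28 and 29.7 CPM in healthy 227 and 228, 2270 and 4240 CPM in healthy 239 and 240, and 690 to 1090 CPM in the MI mice; in other ECs it was 28.5 to 369 CPM and 702 to 1790 CPM. In healthy 239 and 240, 1 member each had over 1% of its UMIs on macrophage genes, as had 18 members in MI mice. The 5 lymphatic genes summed to 346 CPM in the S-phase cells of healthy 240 and 271 CPM in those of MI 256, against 116 and 217 CPM in other ECs, and to 0 to 27.1 CPM in the S-phase cells of the other 6 mice. Over all 8 marker lists of other cells, 26 members passed the limit of 1%, while 1039 members, 27 in healthy and 1012 in MI mice, had UMIs of 2 or more genes of a list. What part these cells had in the values was not tested beyond leaving them out. Of 6 fibroblast genes, 5 passed the filter used for the comparison with other ECs. All 5 were lower in S-phase cells (median log2 fold change -1.62), beside 15.3% of all genes. The 8 pericyte or smooth muscle genes did not go one way. Their sums were higher in S-phase than in other ECs in healthy 227 (35.0 against 10.3 CPM), MI 244 (82.4 against 53.6) and MI 255 (82.4 against 69.6), and lower in the rest. No doublet caller was run, so mixed droplets may be among the members.

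The library facts that touch the values are these. Deposited libraries held 6764977 to 8793655 UMIs in healthy and 15865234 to 27244947 in MI mice. Of their cells, 2041 of healthy 228 and 316 of healthy 227 carried barcodes of another healthy library and were dropped by the rule, which left 28671 cells, and no member shared a barcode. Summed over members, healthy mice gave 509686 UMIs from 100 cells and MI mice 10595168 from 1366 cells. Low genes in healthy S-phase cells therefore rest on a few molecules.

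The replication genes of the rule chose the cells, and their levels are given as a description. Mcm6 and Mcm3, of the MCM helicase, had a UMI in 80.7% and 78.0% of members. Tyms, which makes thymidylate, had one in 69.3%, Mcm5 in 62.8%, Hells in 46.7%, the GINS subunit Gins2 in 38.4%, Uhrf1, which keeps DNA methylation through replication, in 31.3%, thymidine kinase Tk1 in 30.8% and the ribonucleotide reductase subunit Rrm2 in 23.0%. Over the 8 mice Mcm5 was at 141 to 211 CPM in S-phase cells, 6.81 to 12.5 CPM in other ECs and 20.7 to 169 CPM in G2/M cells. Rrm2 went the other way between the dividing states, at 35.0 to 196 CPM in S-phase and 122 to 632 CPM in G2/M cells, and so did Tk1, at 59.4 to 97.9 and 138 to 361 CPM.

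Genes were compared with other ECs of the same mouse in sums of counts, by edgeR's quasi-likelihood model with the mouse as a block. Because the cells were chosen by genes of one programme, no p-value of a single gene is given between S-phase cells and other states. The differences are given as sizes with their SE and in how many mice they held. The threshold on adjusted p serves to count genes and to call list members higher or lower. In this comparison 3134 of 10812 genes (29.0%) had an adjusted p below 0.05, 13.7% higher and 15.3% lower in S-phase cells. These counts include the rule genes, and 1471 higher and 1649 lower genes lay outside the rule. With depth-matched cells it was 1542 of 6381 genes (24.2%), 12.8% higher and 11.4% lower. In the 4 healthy mice alone 5.61% of genes passed higher and 6.02% lower, and in the 4 MI mice alone 16.2% and 12.7%. Counts of list members that passed describe the cells the rule chose, are to be read against these shares and are no independent test. Genes could pass the filter on low counts through S-phase cells alone, which can tilt list counts and medians toward higher values.

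Genes at the fork and its start were higher. Genes of these lists, and of the nucleotide, chromatin and repair lists, could pass the filter through S-phase cells alone. Their counts and medians are a description. Of 20 further origin and helicase genes, 16 passed the filter on low counts, and 15 of these were higher and none lower, with a median log2 fold change of 2.12 where the median of all genes was -0.053. Mcm2, another subunit of the helicase, was at 112, 89.2, 191 and 226 CPM in S-phase cells of the healthy mice and at 139, 148, 111 and 95.3 CPM in those of the MI mice. Other ECs had 6.81 to 18.4 CPM of Mcm2, below every S-phase value, and the log2 fold change was 3.23 ± 0.13 (SE, n = 8 mice). Cdt1, which loads the helicase, was at 44.9 to 97.9 against 3.31 to 7.56 CPM (log2 3.44). Of 24 polymerase, clamp and loader genes, all 22 that passed the filter were higher, with a median of 1.92. Pcna was at 210, 260, 322 and 437 CPM in healthy and 174, 178, 185 and 196 CPM in MI S-phase cells, against 45.9 to 61.8 CPM in other ECs. Its log2 fold change was 1.98 ± 0.08 (SE), and S-phase cells were above the other ECs in all 8 mice.

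Genes that feed and follow the fork were higher as well. Of 21 nucleotide supply genes 19 passed the filter and 18 were higher, with a median log2 fold change of 1.12. Of 22 chromatin assembly and maintenance genes 21 passed the filter and 20 were higher (median 1.28). Chaf1a, the large subunit of the factor that places histones behind the fork, had a log2 fold change of 3.56. Of 20 repair and checkpoint genes 16 passed the filter and all 16 were higher (median 2.45). They included Ung, which removes uracil from DNA. Ung was at 69.9, 52.0, 70.5 and 45.2 CPM in healthy and 45.2, 51.8, 33.8 and 52.6 CPM in MI S-phase cells, against 1.6 to 4.1 CPM in other ECs.

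The gene with the highest fold change outside the rule, among those at 20 CPM or more on average and higher in every mouse, was Dtl. It was at 48.9, 66.9, 70.5 and 60.2 CPM in healthy and 37.9, 51.0, 31.2 and 36.2 CPM in MI S-phase cells, and at 0.389 to 2.58 CPM in other ECs (log2 4.45 ± 0.22, SE, n = 8 mice). Others named by the same rule were 2810417H13Rik, known as Pclaf, a partner of the clamp (log2 4.36), Ccne2, the cyclin of entry into S phase (4.06), Ung (4.02), Top2a (3.62), Chaf1a, Cdt1 and E2f1 (3.31).

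**Figure D2:**
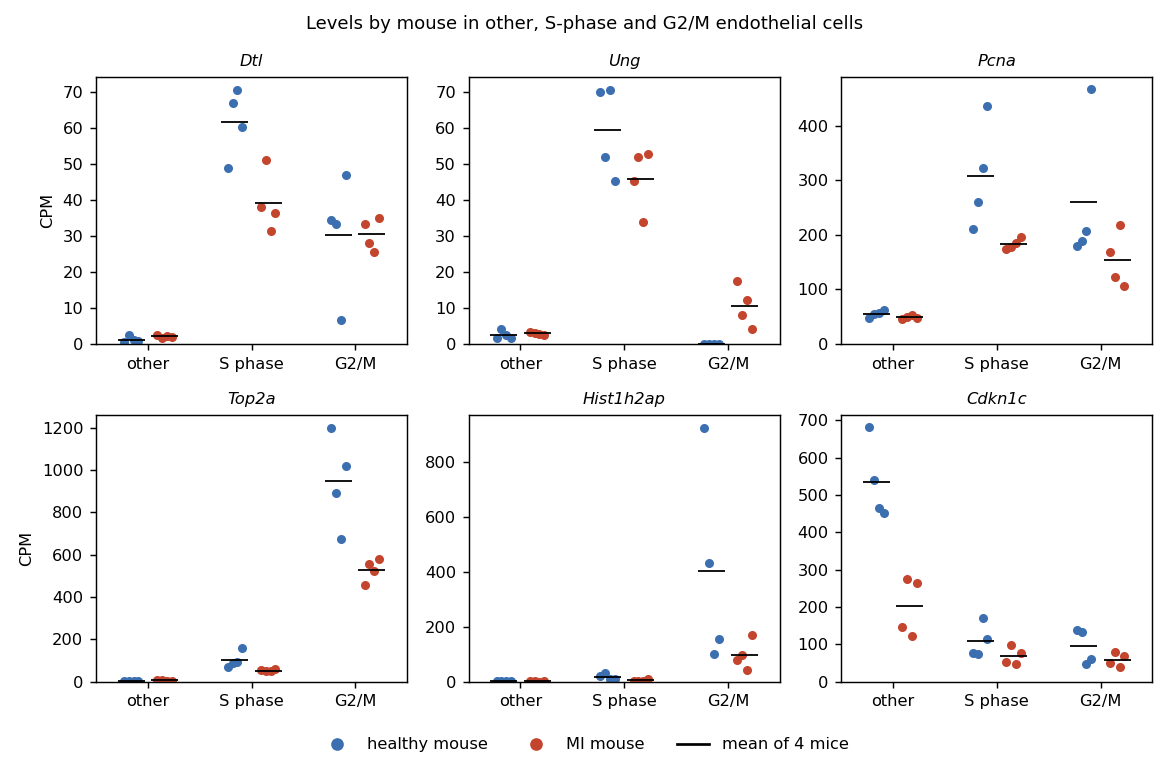
Level of 6 cell-cycle genes (CPM, 1 point per mouse, black line at the mean of 4 mice) in other ECs, S-phase cells and G2/M cells of 4 healthy and 4 MI mice. Dtl and Ung are highest in S-phase cells, Top2a and Hist1h2ap in G2/M cells, and Cdkn1c is highest in other ECs of every mouse.

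Regulators of the cycle went both ways. Of 27 E2F, cyclin, CDK and inhibitor genes, 22 passed the filter, 14 of them higher and 4 lower in S-phase cells. E2f1 was at 60.2 to 119 CPM against 2.38 to 10.5 CPM in other ECs. Ccnd1, the cyclin that carries growth signals in G1, was at 350 to 676 against 243 to 399 CPM and higher in 8 of 8 mice (log2 0.70 ± 0.07, SE). Ccnd2, its relative, was lower in 8 of 8 mice, at 69.9 to 222 against 177 to 271 CPM (log2 -0.57).

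Cdkn1c, the inhibitor p57, stood out on the low side. It was at 76.9, 74.3, 171 and 113 CPM in healthy and 51.4, 97.7, 47.7 and 76.7 CPM in MI S-phase cells. Other ECs had 683, 540, 465 and 451 CPM in healthy and 145, 274, 123 and 263 CPM in MI mice. The S-phase value was the lower one in all 8 mice, with a log2 fold change of -1.74 ± 0.12 (SE), or -1.05 against depth-matched cells. G2/M cells were low in Cdkn1c too, at 46.8 to 138 CPM in healthy and 39.1 to 78.9 CPM in MI mice, with the S-phase value above them in 6 of 8 mice. Cdkn1a, the inhibitor p21, differed less (log2 -0.57) and was lower in 7 of 8 mice.

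The level of Cdkn1c was lower in ECs with more of the replication rule genes, outside the rule and among members. In MI mice it was at 241 CPM in ECs with 0 of the 9 genes, 176 with 1, 140 with 2, 101 with 3, 66.9 with 4 to 5 and 33 with 6 to 9, as means over the 4 mice. In healthy mice the same series was 546, 513, 430, 167, 70.8 and 70.1 CPM. Deeper cells also show more genes, so most steps of this order run along depth as well. Members with 3 and with 4 to 5 genes were close in depth, with median UMIs of 6297 and 6341 in MI and 4292 and 4586.5 in healthy mice. The summed level of 44 replication genes outside the rule rose along it from 799 to 4200 CPM in MI mice and from 803 to 4910 CPM in healthy mice (1280 to 2380 and 1380 to 3590 CPM between 3 and 4 to 5 genes), while G2/M cells had 2310 and 2790 CPM.

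**Figure D3:**
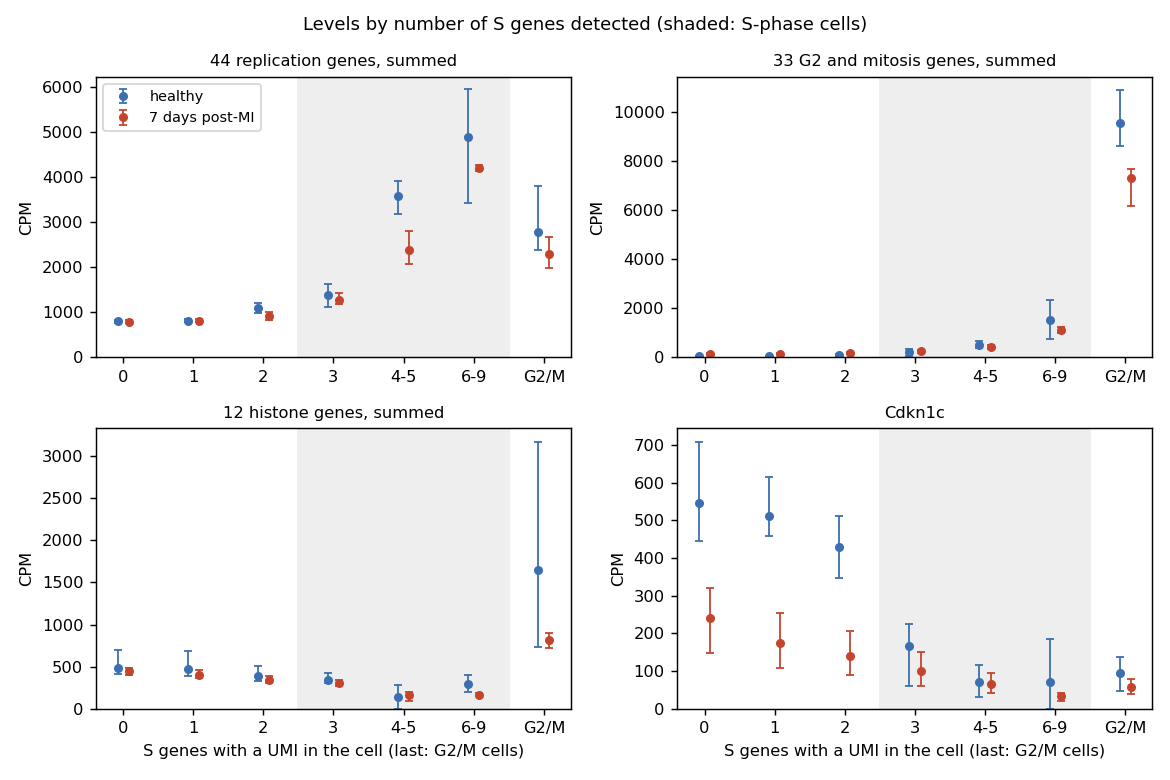
Summed level of 44 replication genes, 33 G2 and mitosis genes and 12 histone genes, all outside the rule, and of Cdkn1c (CPM, mean over 4 mice with a bar from the lowest to the highest mouse, S-phase cells shaded) in ECs grouped by how many of the 9 replication rule genes had a UMI, and in G2/M cells, for healthy and MI mice. Replication genes rise with that number and Cdkn1c falls, while mitosis and histone genes are highest in G2/M cells.

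Members also differed in which cycle genes were seen. A UMI of Ccne1, Ccne2, Cdc6 or E2f1, genes known for entry into S phase, without Top2a or Mki67 was seen in 28.6% of members, Top2a or Mki67 alone in 8.05%, both in 20.8% and neither in 42.6%. The last class depends on depth, since a cell with few UMIs shows few genes. These classes are not an order in time here. Ccne2 was higher in S-phase than in G2/M cells in 2 of 8 mice, and among MI members with 0, 1 and 2 G2/M genes it was at 12.8, 26.2 and 69.3 CPM.

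G2/M cells and S-phase cells were set apart by mitosis genes in the rule, so the levels of further mitosis genes are a description. In this comparison 2421 of 6671 genes (36.3%) had an adjusted p below 0.05, 18.7% higher and 17.6% lower in S-phase cells. The 33 G2 and mitosis genes outside the rule, which could pass the filter on low counts through G2/M cells alone, had log2 fold changes of -6.11 to -2.49. By the naming rule the lowest were Kif2c (log2 -6.40), Pif1 (-6.38), the mitotic cyclin Ccnb1 (-6.11), Hmmr (-5.94) and the kinetochore motor Cenpe (-5.67). Ccnb1 was at 0 to 10.1 CPM in S-phase and 186 to 327 CPM in G2/M cells. Top2a was intermediate, at 69.9, 89.2, 90.7 and 158 CPM in healthy and 53.4, 50.1, 48.0 and 57 CPM in MI S-phase cells, and at 456 to 1200 CPM in G2/M cells.

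Replication-dependent histone genes, whose products package new DNA, were lower in S-phase than in G2/M cells and went both ways against other ECs. Of the 12 listed, 7 passed the filter against G2/M cells and all 7 were lower (median log2 -3.30). Genes of this list could pass that filter through G2/M cells alone, so the count is a description. Against other ECs 6 passed the filter, of which 4 were lower and 1 higher (median -0.86). The 12 genes of the list summed to 448 CPM in MI ECs with no replication rule gene, 166 CPM in members with 6 to 9 of them and 818 CPM in G2/M cells. This sum mixes genes that went either way against other ECs, as given below, and is no measure of histone supply. Hist1h2ap was at 1.69 to 29.7 CPM in S-phase and 40.5 to 925 CPM in G2/M cells (log2 -4.62), the S-phase value being lower in 8 of 8 mice. Hist1h2ae was at 6.99 to 37.1 and 156 to 628 CPM (log2 -4.35). Both were above the other ECs of the same mouse in 8 of 8 mice, where Hist1h2ap was at 0.138 to 2.34 CPM and Hist1h2ae at 1.19 to 4.09 CPM (log2 2.17). Hist1h1c, a linker histone gene, was lower in S-phase cells than in other ECs in 8 of 8 mice (20.2 to 62.9 against 91.6 to 180 CPM, log2 -1.15). Transcripts were captured by their poly(A) tail, which most histone mRNA of dividing cells lacks, and how far that sets these levels was not tested.

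Single replication genes differed between the 2 states in either direction. Ung was listed at 0 in the G2/M cells of all 4 healthy mice and at 4.26 to 17.4 CPM in those of the MI mice, and was higher in S-phase cells (log2 1.99 ± 0.20, SE). Mcm2 (1.18 ± 0.11), Mcm4 (1.04), E2f1 (1.01) and Ccnd2 (1.10) were also higher in S-phase cells than in G2/M cells. Pclaf (-1.48), Rrm1 (-0.85), the histone variant gene H2afz (-1.54) and the chromatin protein gene Hmgb2 (-2.44) were lower. Of 22 chromatin assembly and maintenance genes, 16 were lower and 2 higher in S-phase than in G2/M cells. Of 14 origin and helicase genes tested 4 were higher and 3 lower (log2 -2.46 to 1.18, median 0.10), and of 22 polymerase, clamp and loader genes 5 were higher and 3 lower (log2 -0.82 to 0.45, median 0.14). These counts are near the 18.7% higher and 17.6% lower of all genes.

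The remaining genes that led in S-phase over G2/M cells were Pf4 (1.36) and Srm (1.10). Pf4, a chemokine gene of platelets and some macrophages, was at 28, 52.0, 222 and 647 CPM in healthy and 31.9 to 47.1 CPM in MI S-phase cells, and the 2 high mice are those with high macrophage genes. Srm, which makes spermidine, was at 55.9, 96.6, 80.6 and 90.3 CPM in healthy and 68.5 to 77.8 CPM in MI S-phase cells. Other ECs had 15.6 to 40.7 CPM of Srm and G2/M cells 0 to 49.9 CPM, so that every S-phase value was above both.

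Growth genes were higher in S-phase cells. Of 18 ribosome biogenesis genes, 15 were higher and none lower than in other ECs (median log2 0.57), and 12 of 17 were higher against depth-matched cells. Nop56, a core protein of the particles that modify ribosomal RNA, was at 141 to 272 CPM in healthy and 115 to 161 CPM in MI S-phase cells, against 58.1 to 88.8 CPM (log2 1.08 ± 0.06, SE). Npm1, the nucleolar chaperone, was at 517 to 726 against 321 to 492 CPM. Of 14 glycolysis genes 13 passed the filter, 9 of them higher and 1 lower (median 0.25), but against depth-matched cells the median was 0.05. Ldha, lactate dehydrogenase, was higher in 8 of 8 mice, at 371 to 907 against 330 to 676 CPM, while Aldoa was higher in 1 of 8.

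**Figure D4:**
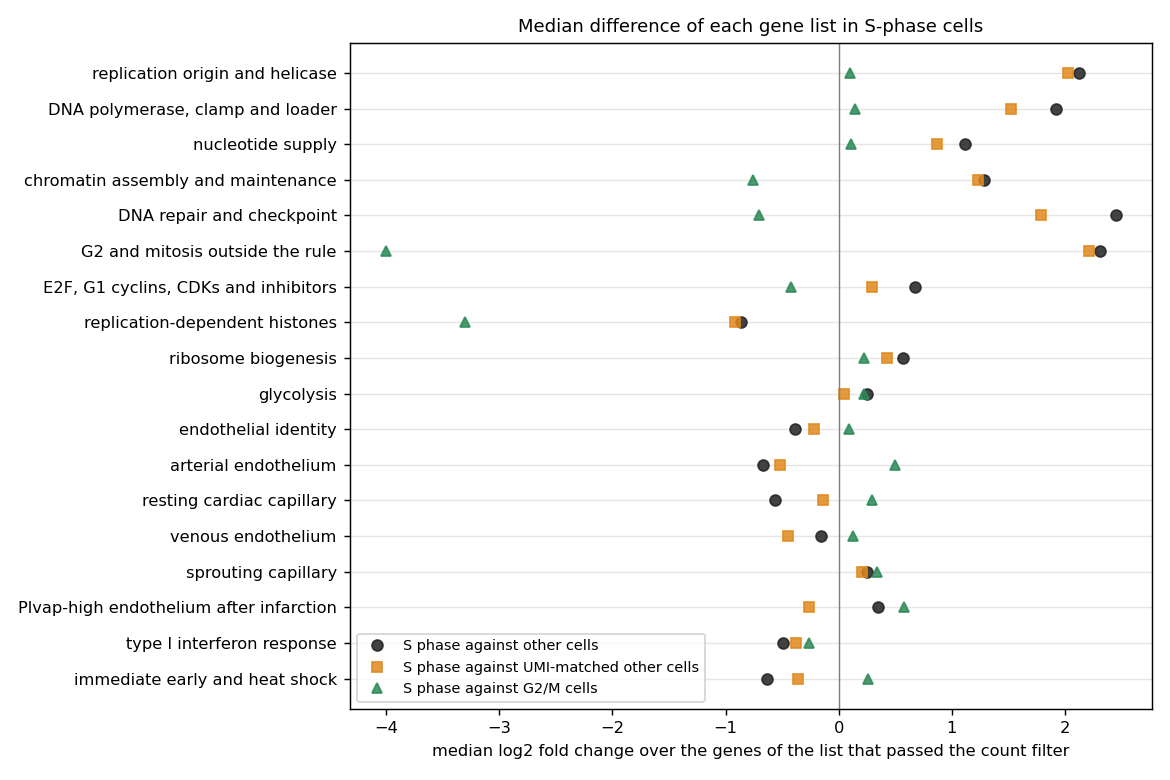
Median log2 fold change of each gene list in S-phase cells against other ECs, against depth-matched other ECs and against G2/M cells (horizontal axis, log2; only genes that passed the filter, rule genes left out). Replication and repair lists lie well to the right against both sets of other ECs, G2 and mitosis genes lie at -4.00 against G2/M cells, and arterial, interferon and immediate early lists lie to the left of 0 against other ECs.

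Genes of arteries and of endothelial identity were mostly lower than in other ECs. Of 12 arterial genes 11 were lower and none higher (median log2 -0.67), and 8 of 11 were lower against depth-matched cells. Hey1, a Notch target of arteries, was at 14.9 to 131 CPM in S-phase cells and 84.4 to 211 CPM in other ECs, lower in 8 of 8 mice (log2 -1.10, depth-matched -0.56). Sox17, an arterial transcription factor (-0.67, depth-matched -0.51), and Fbln5, of elastic fibres (-0.88, depth-matched -0.86), were also lower in 8 of 8 mice. Of 8 venous genes 3 were lower and none higher (median -0.16). Of 16 endothelial identity genes 11 were lower (median -0.39). Flt1, the VEGF receptor 1 that can trap the ligand, was at 248 to 282 CPM in healthy S-phase cells and 318 to 407 CPM in MI S-phase cells. Other ECs had 626 to 804 and 433 to 568 CPM of Flt1, above every S-phase value (log2 -0.78 ± 0.12, SE, depth-matched -0.59). G2/M cells were lower still for several of these genes. Flt1 was at 86.9 to 248 CPM in healthy and 229 to 303 CPM in MI G2/M cells, below the S-phase value in 8 of 8 mice, as were Sox17, Emcn, Eng and Ramp2. Of 11 arterial genes tested 8 were higher in S-phase than in G2/M cells and none lower (median log2 0.50), and of the 16 identity genes 5 were higher and none lower (median 0.09).

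Genes of resting cardiac capillaries were lower too, by less at equal depth. Of 10 such genes 8 were lower than in other ECs (median log2 -0.56), but 2 were lower and 1 higher against depth-matched cells (median -0.14). Car4, carbonic anhydrase 4 on the capillary surface, was at 35.0, 126, 60.5 and 158 CPM in healthy and 43.2, 113, 17.7 and 54.8 CPM in MI S-phase cells, against 319, 297, 274 and 265 CPM and 89.2, 173, 39.7 and 144 CPM in other ECs. It was lower in all 8 mice, with a log2 fold change of -1.13 ± 0.13 (SE), or -0.37 depth-matched. For the fatty acid transporter gene Cd36 the values were -0.62 and -0.18. Gpihbp1, which holds lipoprotein lipase on capillaries, had -0.14 and, depth-matched, 0.27. S-phase cells were above G2/M cells in 8 of 8 mice for Cd36 and Gpihbp1 and in 6 of 8 for Car4. Low levels of Cd36 and Car4 were thus not particular to S-phase cells.

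Sprouting genes leaned the other way, led by apelin. Of 12 genes of the sprouting list 7 were higher and none lower (median log2 0.25), and 4 were higher and 2 lower of 11 against depth-matched cells. Apln, the apelin gene of sprouting tips (chrX:48025146-48034853, minus strand, GRCm38), was at 427, 267, 534 and 211 CPM in healthy and 252, 179, 227 and 221 CPM in MI S-phase cells. Other ECs had 35.4, 32.8, 64.6 and 62.6 CPM in healthy and 153, 94.8, 112 and 104 CPM in MI mice, so S-phase cells were above them in all 8 mice. The log2 fold change was 1.29 ± 0.20 (SE), and 0.80 ± 0.11 against depth-matched cells. Apln was also higher in S-phase than in G2/M cells (log2 0.49), which had 55.2 to 342 CPM. In ECs with 0, 1 and 2 replication rule genes it stood at 39.1, 65.0 and 158 CPM in healthy and at 106, 115 and 143 CPM in MI mice. Nid2, a basement membrane gene, was higher in 8 of 8 mice (80.6 to 134 against 26.7 to 107 CPM, log2 0.49). Pgf, placental growth factor, was higher in 8 of 8 mice as well (log2 0.62) but had -0.02 against depth-matched cells.

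**Figure D5:**
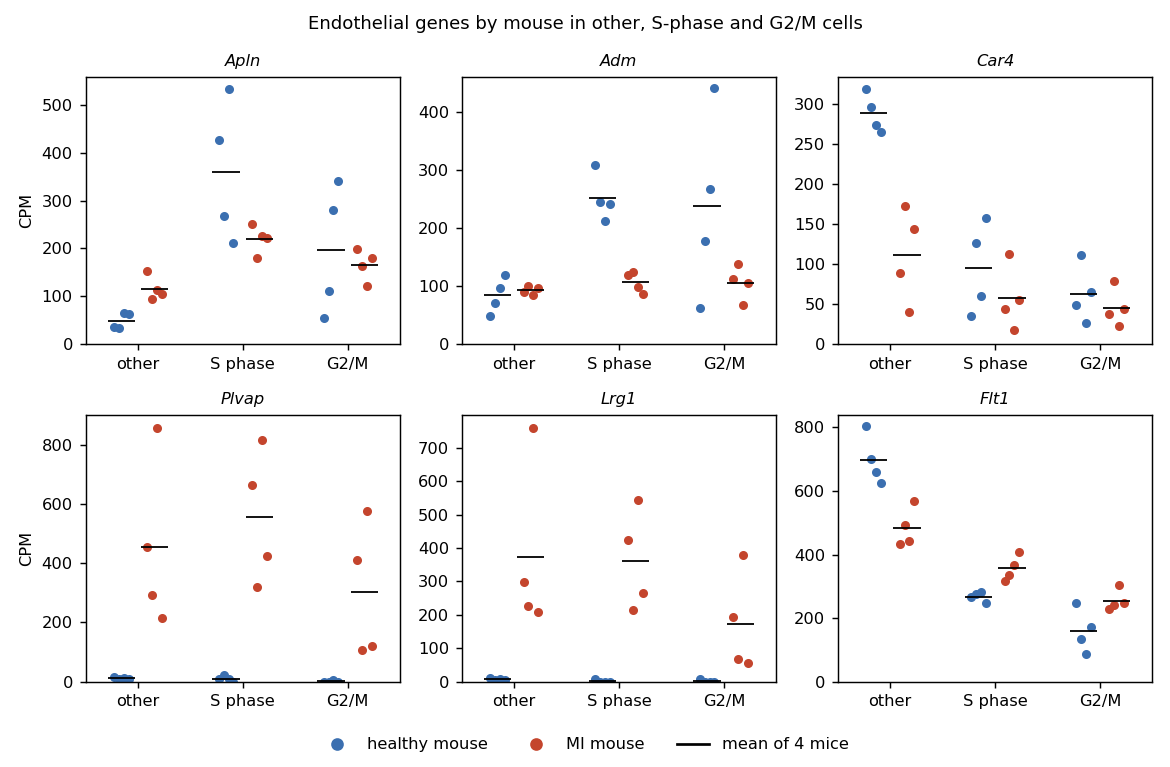
Level of 6 EC genes (CPM, 1 point per mouse, black line at the mean of 4 mice) in other ECs, S-phase cells and G2/M cells of 4 healthy and 4 MI mice. Apln is higher in S-phase cells than in other ECs of the same mouse in all 8 mice, Car4 and Flt1 are lower in all 8, and Plvap and Lrg1 are high in MI mice in every state.

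Genes of response states were lower in S-phase cells. Of 10 type I interferon response genes 9 were lower (median log2 -0.49), and all 10 were lower against depth-matched cells (median -0.38). Ifit1, an antiviral RNA sensor, was at 6.99 to 37.1 CPM in healthy and 65.5 to 172 CPM in MI S-phase cells, lower than the other ECs of the same mouse in 8 of 8 (log2 -0.89). Of 11 immediate early and heat shock genes all 11 were lower (median -0.63), and 8 against depth-matched cells (median -0.36). Fos was at 468 to 1340 against 815 to 1910 CPM and lower in 8 of 8 mice. These low levels were not particular to S-phase cells. Ier2 and Hspa1a were above G2/M cells in 8 of 8 mice, and Fos, Junb, Dusp1, Zfp36 and Hspa1b in 7. Jun, Egr1 and Atf3 were above them in 5 of 8 mice and Fosb in 4. Of the interferon genes, Ifit3b was above G2/M cells in 5 of 8 mice, Ifit1, Ifit3 and Irf7 in 4, and Usp18 and Cxcl10 in 1, with the others between.

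Other genes at the low end were globins, Nebl, Alpl, Slfn5 and Alox12. Hba-a1 had a log2 fold change of -4.15, but without cells that carried over 1% of their UMIs on a marker list it was -0.22. Alpl, alkaline phosphatase, was at 7.43 to 50.4 against 30.6 to 177 CPM (log2 -1.89 ± 0.14, SE) and lower in 8 of 8 mice. Slfn5 was at 67.7 to 121 against 181 to 323 CPM (log2 -1.14).

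MI and healthy S-phase cells were compared across mice, which the rule did not use. In edgeR's quasi-likelihood test 210 of 6513 genes (3.22%) had an adjusted p below 0.05, 79 (1.21%) higher and 131 (2.01%) lower after MI, and 1185 had an unadjusted p below 0.05. In other ECs, with many more cells, 3851 of 12016 genes (32.0%) passed. Of the 79 and 131 genes, 72 and 112 passed in other ECs as well in the same direction. Of the 30 genes named for this comparison, 14 kept direction and call whichever mouse was left out. S-phase cells also differed in depth between the groups (medians of 4931 and 6844.5 UMIs), whose part in these differences was not tested. Some markers of other cells were higher in MI S-phase cells too. The 6 fibroblast genes summed to 0 to 7.43 CPM in healthy and 14.7 to 116 CPM in MI mice. The 8 pericyte or smooth muscle genes summed to 0 to 35.0 and 39.2 to 82.4 CPM. For the other marker lists the groups overlapped. The part of such cells was not tested beyond leaving marker-holding cells out.

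The genes that rose after MI in S-phase cells included markers of the Plvap-high ECs of infarcted hearts. Plvap, the protein of fenestral diaphragms, was at 6.99, 22.3, 10.1 and 0 CPM in healthy S-phase cells, 5 UMIs in all, and at 667, 319, 818 and 425 CPM in MI S-phase cells. Every MI mouse was above every healthy mouse, which the naming rule required (edgeR, log2 5.75 ± 0.52, SE, adjusted p = 9.8e-05). Other ECs had 8.31 to 15.4 and 215 to 860 CPM. Lrg1, a modulator of TGF-beta signalling, had 1 UMI in healthy S-phase cells and 4229 in MI S-phase cells, a ratio of 203 per UMI (exact 95% interval 36.5 to 8040, for counting error only). Of the 9 genes of the Plvap-high list 6 rose and none fell, with a median log2 fold change of 1.18 beside -0.015 for all genes, of which 1.21% rose. Bgn, a matrix proteoglycan, was at 6.99 to 37.6 and 166 to 277 CPM (log2 3.23, edgeR adjusted p = 0.000267). The list was drawn from earlier results on these same hearts, so its count is not independent evidence of a rise. Genes near the floor in healthy mice could also pass the filter on low counts through MI mice alone, and such genes could hardly fall.

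The difference between S-phase cells and other ECs in these genes depended on the comparison cells. Of the 9 genes of the list 4 were higher and none lower than in other ECs (median log2 0.35), but 4 were lower and none higher against depth-matched cells (median -0.26). Plvap had a log2 fold change of 0.35 against other ECs but -0.46 against depth-matched ones, and Lrg1 0.03 and -0.79.

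Further genes that rose by the naming rule included Slco2a1, Synpo, Igfbp5, 2200002D01Rik, Bmp4, Igfbp3 and Fam167b. Igfbp3, which binds insulin-like growth factors, was at 69.9, 22.3, 60.5 and 22.6 CPM in healthy and 398, 266, 702 and 402 CPM in MI S-phase cells (log2 3.28 ± 0.39, SE, edgeR adjusted p = 0.000474). Slco2a1, a prostaglandin carrier, had 1 UMI in healthy S-phase cells and 573 after MI (27.6-fold per UMI, exact interval 4.93 to 1090). Bmp4, a growth factor, had 2 and 463 (11.1-fold, exact interval 3.07 to 92.2). Leaving out healthy 228 took the edgeR adjusted p of Bmp4 (0.0513), Slco2a1 (0.0563) and Synpo (0.054) above 0.05, and leaving out healthy 227 did so for Slco2a1 (0.0604), Synpo (0.0592) and Igfbp5 (0.0592). Sox18, an EC transcription factor, was at 20.2 to 42.0 and 135 to 288 CPM (log2 2.77, edgeR adjusted p = 0.00119). Of 10 interferon genes 2 rose, where 1.21% of all genes did, Irf7 from 60.2 to 70.5 CPM in healthy to 169 to 383 CPM in MI mice (log2 1.93, edgeR adjusted p = 0.00234) and Isg15 (log2 0.98, edgeR adjusted p = 0.0361).

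Genes that fell after MI included a sprouting gene and many predicted genes. Adm, adrenomedullin, a vasodilator peptide gene of sprouting ECs, was at 308, 245, 212 and 241 CPM in healthy and 118, 123, 98.5 and 86.6 CPM in MI S-phase cells. The groups did not overlap (log2 -1.31 ± 0.18, SE, edgeR adjusted p = 0.00119), but without cells above the 95th percentile of UMIs the adjusted p was 0.109. Susd6 fell from 45.2 to 119 CPM in healthy to 20.5 to 27.4 CPM in MI mice (log2 -1.98 ± 0.30, SE, edgeR adjusted p = 0.00273). The other 9 of the 10 named lowest genes were predicted gene models or ribosomal pseudogenes (Gm10126, Gm4799, Gm15013, Gm10269, Gm5786, Gm10263, Gm5611, Gm17541 and Rps26-ps1), whose reads near-identical copies may share. Gm15013 is annotated as protein-coding and the other 8 as processed pseudogenes. Of the 131 genes that fell, 42 were of that kind, and 40 of the 42 fell in other ECs too.

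Of the replication lists, 1 of 14 tested origin and helicase genes and 1 of 21 tested polymerase, clamp and loader genes fell after MI in S-phase cells and none rose, beside 2.01% of all genes that fell. Pcna (log2 -0.81 ± 0.19, SE, edgeR adjusted p = 0.0288), Top2a (-1.06 ± 0.24, SE, 0.0279) and the origin kinase gene Cdc7 (-1.53, 0.0427) fell after MI. Each lost the call in edgeR without the healthy mouse 240 (adjusted p 0.124, 0.172 and 0.065), without 228 (0.0669, 0.0796 and 0.233) or without 239 (0.0811, 0.0575 and 0.0575), and Cdc7 also without 227 (0.19). Of 18 tested genes of the nucleotide supply list 1 rose, the nucleoside transporter gene Slc29a1, and of the 22 chromatin genes none passed in either direction.

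Some differences between S-phase cells and other ECs were not alike in healthy and MI hearts. The test of that difference (interaction in edgeR) passed in 287 of 11529 genes (2.49%), 1.37% higher and 1.12% lower, but in 51 of 7421 (0.687%) with depth-matched cells, 0.404% higher and 0.283% lower. The depth-matched fit also held far fewer comparison cells, and what part that had in the lower count was not tested. Apln was 2.80 log2 units higher in S-phase cells than in other ECs in healthy mice and 0.93 in MI mice, in separate fits, and the interaction term from the joint fit, -1.78 ± 0.21 (SE), had an adjusted p of 7.08e-06 in edgeR, or -1.21 and 0.0255 depth-matched. The level of Apln in other ECs rose after MI (log2 1.16, edgeR adjusted p = 0.00567), while in S-phase cells the change was -0.75 (adjusted p = 0.0804). Flt1 went the opposite way, with S-phase cells further below other ECs in healthy than in MI mice (1.13 ± 0.13, SE, edgeR adjusted p = 5.05e-06, depth-matched 1.14 and 0.000224). Tcf15, a transcription factor of capillaries, did likewise (0.97, edgeR adjusted p = 9.93e-05, depth-matched 0.93 and 0.0059). For Cdkn1c the difference was 1.04 (edgeR adjusted p = 0.00842), but the edgeR adjusted p was 0.0956 without the healthy mouse 227, 0.0554 without 228. Depth-matched it was 1.07 with an edgeR adjusted p of 0.05, at the threshold. All 8 macrophage genes passed lower (median -3.42 beside 0.17 for all genes), along with the high levels in the S-phase cells of healthy 239 and 240, and without cells rich in marker genes 72 in place of 129 genes passed lower.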

How the data were processed

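Sorted cardiac ECs of 8 mice were profiled with the 10X Genomics Chromium Single Cell 3′ assay. Per the labels, the authors aligned and counted reads with Cell Ranger on mm10 and used R 3.5.2 and Seurat 2.3, and the deposited table, used here, holds raw UMI counts of 16791 genes in 31028 cells, none with fewer than 403 genes or over 20.0% mitochondrial UMIs. Intronic reads and strand settings are not given in the sources used here. Cells were assigned to mice by the mouse number in their column names, which matches the labels. No further cell filter and no doublet caller was applied.

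Counts were summed per mouse over S-phase cells, G2/M cells and other ECs (fewer than 3 genes of each set). Sums were compared in edgeR 4.0.16 (R 4.3.3; TMM, filterByExpr, quasi-likelihood F-test, Benjamini-Hochberg over all genes tested, threshold 0.05). The mouse was a block between states, since both sums come from the same animal, and same-mouse sums deviated together (r from 0.39 to 0.77 for S-phase and other ECs over 3365 genes). Between healthy and MI mice the mouse was the replicate. Shares were compared by exact permutation. CPM are per 1000000 UMIs of a sum. Intervals cover counting error only. Steps were tested on simulated data. Alternatives used DESeq2 1.42.0, limma 3.58.1, other cell filters, thinning and depth-matched cells (1 per member, chosen after the data were seen). Python 3.11.15 with numpy 2.4.6, scipy 1.17.1 and pandas 2.3.3 was used.

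Members and gene lists were chosen with earlier results of these data known. Named genes are list members a passage rests on and, for each comparison, the genes with the largest changes among those passing the threshold, at a mean of 20 CPM or more and with every mouse on one side: 10 highest and 10 lowest against other ECs and between conditions, 5 and 5 against G2/M cells. Some genes named by this rule are not reported here.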

Additional observations from a re-analysis of the deposited data

Results flagged for a closer look

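Among 206 groups of 4 mice tested for a sample far from the others, 20 were found, where chance gives about 1 in 20. All values are CPM in S-phase cells. In the healthy mouse 239 Alpl was at 50.4, Nebl at 80.6, Ccnb1 at 10.1 and Synpo at 10.1, and in healthy 240 Cenpe was at 7.53, Slco2a1 at 7.53 and Pgf at 105. In healthy 227 Bmp4 was at 14, Lrg1 at 6.99 and Hist1h2bc at 189, and in healthy 228 Gm10263 was at 520 and Gm17541 at 193. Several of these rest on a single UMI, since healthy S-phase sums are small. MI 244 stood apart for the globin genes, with Hba-a1 at 832, Hba-a2 at 680, Hbb-bs at 1570 and Hbb-bt at 280, and for Nid2 (134) and Hey1 (56). It holds the 3 members with over 1% of their UMIs on red cell and platelet genes. The other values were Lig1 at 126 in MI 250 and Ccne1 at 14.2 in MI 256.

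The MI effect differed between S-phase cells and other ECs by the interaction test in edgeR for Apln (-1.78), Adm (-1.21), Cdkn1c (1.04), Flt1 (1.13), Tcf15 (0.97), Top2a (-2.68), E2f1 (-1.67), Mcm2 (-1.03) and Cdk1 (-2.01), all as log2 values. With depth-matched comparison cells Apln, Flt1 and Tcf15 kept the call and Cdkn1c was at the threshold (1.07, edgeR adjusted p = 0.05), while it was lost for Adm (edgeR adjusted p = 0.218), Top2a (0.194), E2f1 (-0.01, adjusted p = 1), Mcm2 (0.339) and Cdk1 (0.26). The depth-matched fit held far fewer comparison cells, 1 per member, so a lost call alone does not show that a difference was gone. Other ECs of MI mice also held more of the cycle genes, with 23 of 27 tested G2 and mitosis genes higher after MI beside 16.3% of all genes, and their part in these values was not tested.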

How the results depend on the processing

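The S-phase share stayed higher in MI mice under each alternative run. With the copied cells kept, healthy 228 was at 1.03% (30 of 2914) in place of 1.74%, and the healthy mean was 0.955%. Without cells above the 95th percentile of UMIs the means were 0.62% in healthy and 8.04% in MI mice, a ratio over 1.5 times that of 7.85 in all cells. With at least 2 of the 9 genes they were 3.69% and 18.4% (4.99-fold), with at least 4 0.597% and 5.62% (9.41-fold), and with at least 2 at 1000 UMIs 0.953% and 4.72% (4.95-fold, beside 9.43). Without 1 mouse the difference was 6.25 to 9.38 points, 1.22 to 1.97 at 1000 UMIs and 6.53 to 9.06 for G2/M cells, with a smallest possible p of 0.0571. S-phase cells as a part of dividing cells differed by -4.63 to 2.25 points, and the sign turned without healthy 228 (2.25) and at 1000 UMIs (3.08). The part itself was 51.5% (healthy) and 49.2% (MI) in full counts, but 24.8% and 27.9% at 1000 UMIs.

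Genes passing higher and lower against other ECs (1482 and 1652) ranged from 1114 to 1621 and 1011 to 1570 without 1 mouse. They were 853 and 827 without cells holding markers of other cells, 817 and 725 depth-matched, 467 and 492 in thinned cells, 550 and 590 in healthy mice, and 900 and 1009 without the mouse (replicate block). Lower genes were 1078 in DESeq2 and 934 in limma-voom. Of the EC subtype genes, 11 passed higher and 22 lower, 9 to 13 and 19 to 22 without 1 mouse. The higher ones were 5 depth-matched, 7 in thinned cells, 7 in limma-voom and 3 without the block, and the lower ones 14 without the block. Against G2/M cells (1246 and 1175) they were 620 to 1426 and 583 to 1317 without 1 mouse, 389 and 470 without marker-holding cells, and 407 and 644 without the block.

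Between MI and healthy S-phase cells (79 and 131) they were 39 to 69 and 43 to 121 without 1 mouse, 137 and 278 in DESeq2, 51 and 63 without cells above the 95th percentile of UMIs and 31 and 52 without marker-holding cells. The higher ones were 50 in limma-voom and 357 with no filter on low counts. The interaction (158 and 129) ranged from 83 to 208 and 50 to 176, with 30 and 21 depth-matched, 23 and 22 with the 5 nearest cells per member, and 72 lower without cells over 1% on a marker list.

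Against other ECs, signs turned for Pgf (-0.02 depth-matched), Plvap (-0.07 below the 95th percentile, -0.47 without marker-holding cells, -0.46 depth-matched, -0.03 with the 5 nearest cells, -0.30 in healthy mice), Lrg1 (-0.31, -0.54 and -0.79 under the first 3 of these) and Gpihbp1 (0.27 depth-matched, 0.16 with the 5 nearest cells). The 5 nearest cells had a median of 4925.5 UMIs in healthy but 5093 in MI mice, below the 6844.5 of MI members, so they matched depth in healthy mice only. The causes were not tested. Of the named genes 51 of 69, 18 of 19, 7 of 30 and 7 of 13 kept direction and call throughout against other ECs, against G2/M cells, between conditions and in the interaction. The depth-matched, healthy-only and marker-list settings were chosen after seeing the data.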

Other observations

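Xist, which coats the silenced X chromosome, was at 0 CPM in the S-phase cells of healthy 227 and 0.242 CPM in those of MI 244. In the other 6 mice it was at 1610 to 1940 CPM in healthy and 1140 to 1390 CPM in MI S-phase cells, above the other ECs of the same mouse (995 to 1120 and 947 to 1020 CPM) in all 6. Each group therefore holds 1 mouse without Xist. The log2 fold change in S-phase cells was 0.45, and 0.51 against depth-matched cells.

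Col15a1, a basement membrane collagen gene, was higher in S-phase cells than in other ECs in 8 of 8 mice, at 75.3 to 156 CPM in healthy and 215 to 273 CPM in MI S-phase cells. It rose after MI in S-phase cells (log2 0.90, edgeR adjusted p = 0.024, or 0.0543 without healthy 227 and 0.055 without healthy 240). Cldn5, the junction gene, was at 795 to 1600 CPM in healthy and 518 to 845 CPM in MI S-phase cells, which overlap, and fell after MI there (log2 -0.87, edgeR adjusted p = 0.0326), a call lost without healthy 227 (0.141), 239 (0.115) or 240 (0.0587) and without MI 255 (0.0706) or 256 (0.0501).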
